A study of Homo sapiens with 15 samples.

Results

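The genes described here are the skin kallikreins with their inhibitor and a membrane-bound protease of epithelia. They were chosen by name, as KLK5, KLK6, KLK7, KLK8, KLK10, KLK11, KLK13, KLK14, SPINK5 and TMPRSS11E. Of these 10 genes, 8 were analysed, out of 18179 gene identifiers in all, and KLK7 and KLK8 were not analysed here. RNA was sequenced from HaCaT cells, an immortal keratinocyte line from human skin, grown as a culture of one cell type. The 5 groups of 3 libraries were cells given Li-doped Ag2S NPs (silver sulfide nanoparticles that emit near-infrared light, made with lithium ions) at 160 or 320 μg/mL for 24 h, cells given undoped Ag2S NPs at the same doses and time, and untreated cells (the control). No source states whether the 15 libraries are from separate cultures, and p-values here therefore measure only the spread between these libraries.

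Kallikrein-related peptidases are secreted serine proteases that are made as inactive precursors and activate one another in chains. In the upper epidermis they cut the proteins of corneodesmosomes, the junctions that hold dead cells together, so that the outermost cells can be shed. SPINK5 encodes LEKTI, a secreted inhibitor with many Kazal-type domains that binds KLK5, KLK7 and KLK14, and its loss causes Netherton syndrome, in which the skin barrier is digested too early. TMPRSS11E encodes a trypsin-like protease anchored in the plasma membrane of epithelial cells.

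The level of each gene was given as FPKM (sequenced fragments divided by transcript length and by the size of the library), so levels of different genes can be compared per length. Summed over genes, FPKM ran from 582451 to 698579 per library, with the highest sum in replicate 15 of the Li-doped Ag2S NPs at 320 μg/mL. All 12 keratinocyte markers checked averaged over 1 FPKM in every group, and their summed level per library was 10506 to 31122 FPKM. Markers of other cell types were low, with summed levels of 2.19 to 16.3 FPKM for 8 fibroblast genes, 1.86 to 3.37 FPKM for 5 melanocyte genes, 0.15 to 4.01 FPKM for 4 endothelial genes and 9.55 to 29.4 FPKM for 3 leukocyte genes. The fibroblast sum was 2.39 to 4.59 FPKM with Li-doped Ag2S NPs at 160 μg/mL and 13.2 to 16.3 FPKM in control, whereas the leukocyte sum was 25.8 to 29.4 FPKM in these treated libraries and 11.1 to 12.1 FPKM in control. The higher leukocyte sum came from CD68 alone (26.6 FPKM on average with these particles and 10.3 FPKM in control), since CD14 averaged 1.09 and 1.23 FPKM in the same groups and CD3E 0 and 0.20 FPKM. The part of these markers in the results below was not tested. In bulk RNA, fewer cells of a kind and less RNA per cell cannot be told apart.

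On GRCh38, the 6 kallikrein genes analysed lie on the minus strand of chromosome 19 within 140.943 kb. KLK5 occupies chr19:50943303-50953093, KLK6 chr19:50958631-50969673, KLK10 chr19:51012739-51020175, KLK11 chr19:51022216-51028039, KLK13 chr19:51056206-51065114 and KLK14 chr19:51077495-51084245. SPINK5 lies on the plus strand of chromosome 5 at chr5:148025683-148137289, and TMPRSS11E on the plus strand of chromosome 4 at chr4:68447449-68497604. Antisense genes overlap KLK5 (AC011483.2), KLK6 (AC011483.1 and AC011483.2) and KLK10 (AC011473.2), and the library kit does not mark strand, so the reads of these genes and of their antisense partners cannot be told apart.

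The DNA before the transcription start is shown for 4 genes that moved in different ways, KLK5, KLK13, SPINK5 and TMPRSS11E. The sequences are those of RefSeq on GRCh38.p14, read 5′ to 3′ toward the gene and limited to bases outside annotated exons, except for SPINK5, where an exon of a minor transcript covers the region and only 30 bases around each match are shown. Capitals mark the TATA sequence TATAAA or, in the first SPINK5 stretch, the grainyhead-like motif AACCNGTT, on either strand.
KLK5, chr19:50953094-50953288, minus strand: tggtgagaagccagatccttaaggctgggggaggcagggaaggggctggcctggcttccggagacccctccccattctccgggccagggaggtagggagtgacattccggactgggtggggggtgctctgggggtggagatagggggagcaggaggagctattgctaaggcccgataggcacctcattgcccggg
KLK13, chr19:51065115-51065342, minus strand: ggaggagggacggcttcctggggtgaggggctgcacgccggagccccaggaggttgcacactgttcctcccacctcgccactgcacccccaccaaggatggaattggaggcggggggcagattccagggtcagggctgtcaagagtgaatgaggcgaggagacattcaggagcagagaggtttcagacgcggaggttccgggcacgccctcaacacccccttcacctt
SPINK5, chr5:148063908-148063937, plus strand: tgaccttgaacAACTGGTTttatgtgggtg
SPINK5, chr5:148063937-148063966, plus strand: gtcaccagtgcTTTATAAAagtaaactgca
TMPRSS11E, chr4:68447213-68447448, plus strand: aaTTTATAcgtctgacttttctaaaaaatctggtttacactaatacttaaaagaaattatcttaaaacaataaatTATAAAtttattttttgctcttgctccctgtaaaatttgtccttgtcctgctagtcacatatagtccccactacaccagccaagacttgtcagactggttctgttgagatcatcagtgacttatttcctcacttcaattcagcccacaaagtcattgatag

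In the 250 bases before the RefSeq start, SPINK5 held the grainyhead-like motif 61 bases before the start and TATAAA on both strands, overlapping, at 32 and 30 bases before it. Of 35116 promoter windows of this length, 1.49% held the grainyhead-like motif and 10.7% held TATAAA. The SPINK5 start used lies inside the annotated span of the gene. The bases right after it occur in ENST00000359874 and ENST00000398454, which held 12.5% and 3.80% of the SPINK5 FPKM in control. They do not occur in full in ENST00000256084, which held 41.2%. TMPRSS11E held TATAAA at 248 and 175 bases before the start. The SMAD motif CAGAC, which 38.0% of the windows held, was found at 217 bases before the SPINK5 start, at 241 and 85 bases before the TMPRSS11E start and at 67 bases before the KLK13 start. The GC box GGGCGG, present in 42.6% of the windows, lay at 11 and 7 bases before the KLK13 start, overlapping. The window of KLK5 held none of the 6 motifs searched on both strands, the other 2 being the AP-1 motif TGANTCA (6.57% of windows) and the E-box CACCTG (17.5%). The KLK10 window before the start of ENST00000358789 also held none of the 6. The KLK10 window before ENST00000309958 held the SMAD motif at 233 bases before the start.

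KLK10 was the most abundant of the genes in control cells, at 161 ± 12.5 FPKM (SD, n = 3), ahead of KLK5 at 47.5 ± 0.55, KLK11 at 25.3 ± 1.68 and SPINK5 at 19.7 ± 0.66 FPKM. TMPRSS11E at 12.5 ± 0.52 FPKM and KLK13 at 11.2 ± 0.72 FPKM followed, and their libraries overlapped. KLK6 (0.74 ± 0.14 FPKM) and KLK14 (0.47 ± 0.08 FPKM) were near the floor. The order of the means was the same with Ag2S NPs at 160 μg/mL and changed in the other treated groups. KLK5 took first place with Li-doped Ag2S NPs at 160 μg/mL and with Ag2S NPs at 320 μg/mL, and its libraries did not overlap those of KLK10 there. With Li-doped Ag2S NPs at 320 μg/mL, KLK10 and KLK5 overlapped at the top.

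**Figure D1:**
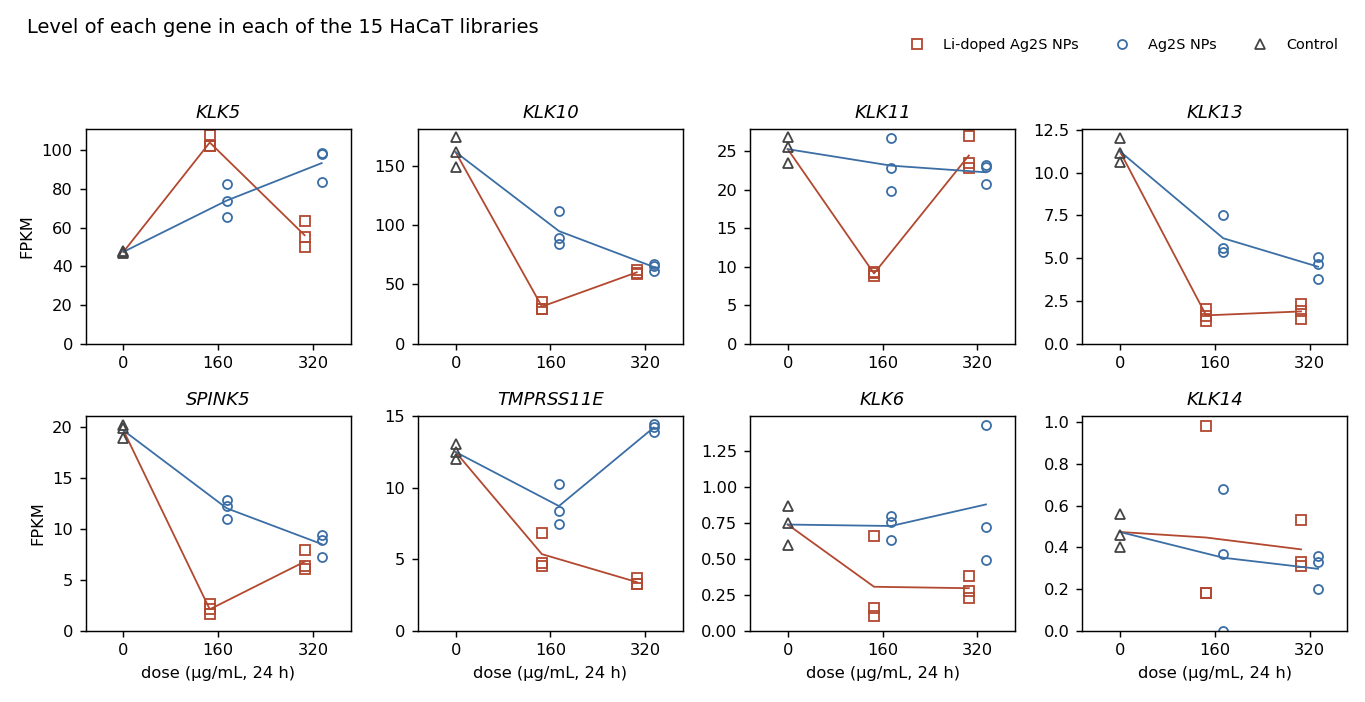
FPKM of the 8 genes (y axes, each from 0) against dose in μg/mL (x axes), with a square for each library of Li-doped Ag2S NPs, a circle for each library of Ag2S NPs, a triangle for each control library and lines through the group means. KLK5 peaked at 104 FPKM with Li-doped Ag2S NPs at 160 μg/mL, the group in which KLK10, KLK11 and SPINK5 had their lowest means, 31.3, 9.13 and 2.11 FPKM.

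KLK5 encodes the trypsin-like kallikrein that can activate itself and the precursors of KLK7 and KLK14, and it was the kallikrein of the set whose RNA was higher in treated cells. At 160 μg/mL it had 102, 102 and 108 FPKM with Li-doped Ag2S NPs and 65.7, 74.0 and 82.5 FPKM with Ag2S NPs, against 48.1, 47.5 and 47.0 FPKM in control. When given 320 μg/mL, the cells had 55.2, 49.99 and 63.3 FPKM with Li-doped Ag2S NPs and 83.8, 98.4 and 98.1 FPKM with Ag2S NPs. Every treated library was above every control library, and the Li-doped particles gave the higher level at the lower dose but the lower level at the higher dose. Relative to control, the log2 fold change was 1.13 ± 0.08 (SE) with Li-doped Ag2S NPs at 160 μg/mL (adjusted p = 6.02e-07) and 0.63 ± 0.08 with Ag2S NPs at that dose (adjusted p = 2.91e-04). At 320 μg/mL it was 0.23 ± 0.09 with Li-doped Ag2S NPs (adjusted p = 0.0438) and 0.97 ± 0.09 with Ag2S NPs (adjusted p = 7.15e-06). Fold changes here were computed on log2(FPKM + 0.1), which makes changes at low FPKM look smaller than they are, with limma and the Benjamini-Hochberg adjustment over all genes with a mean of at least 1 FPKM. The small rise with Li-doped Ag2S NPs at 320 μg/mL passed narrowly. Its call was lost without replicate 15, where the log2 fold change was 0.14 and the adjusted p 0.134. Leaving out any of the 3 control libraries, replicate 8 or 9 of the Ag2S NPs or replicate 13 also ended the call, whereas scaling by median ratio gave a larger log2 fold change of 0.48 (adjusted p = 0.00650).

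SPINK5, the gene of the inhibitor LEKTI, fell in all 4 treated groups. Its 3 libraries with Li-doped Ag2S NPs at 160 μg/mL had 2.59, 1.64 and 2.1 FPKM, those with Ag2S NPs at that dose had 12.9, 12.3 and 10.9 FPKM, and control had 20.2, 18.9 and 19.9 FPKM. The levels at 320 μg/mL were 6.06, 7.91 and 6.38 FPKM with Li-doped Ag2S NPs and 9.43, 8.87 and 7.25 FPKM with Ag2S NPs. No treated library reached the lowest control library, and the 2 particles overlapped at 320 but not at 160 μg/mL. The fall with Li-doped Ag2S NPs at 160 μg/mL, a log2 fold change of -3.18 ± 0.15 (SE, adjusted p = 2.66e-08), was the largest among the 6 genes of the set that entered the test, over these 4 comparisons. With Ag2S NPs at 160 μg/mL it was -0.71 ± 0.15 (adjusted p = 0.00560), and at 320 μg/mL it was -1.53 ± 0.13 with Li-doped Ag2S NPs (adjusted p = 2.80e-06) and -1.21 ± 0.13 with Ag2S NPs (adjusted p = 2.00e-05).

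KLK5 and SPINK5 moved in opposite directions, and the ratio of the protease to its inhibitor at the RNA level differed widely between groups. The KLK5 FPKM was 51.0 ± 11.4 times the SPINK5 FPKM with Li-doped Ag2S NPs at 160 μg/mL (SD, n = 3) and 6.23 ± 1.23 times with Ag2S NPs at 160 μg/mL, against 2.42 ± 0.08 times in control. At 320 μg/mL the ratio was 8.45 ± 1.89 with Li-doped Ag2S NPs and 11.2 ± 2.32 with Ag2S NPs. Its lowest value in any treated library was 5.11 and its highest value in control was 2.51. These ratios use the FPKM of whole genes. Protein-coding transcripts held 49.6% of the SPINK5 FPKM with Li-doped Ag2S NPs at 160 μg/mL and 57.6% in control. They held 100% of the KLK5 FPKM in both groups, so a ratio of coding RNA alone would be higher in both. The ratios are descriptions of RNA and were not tested, and neither protein was measured here.

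**Figure D2:**
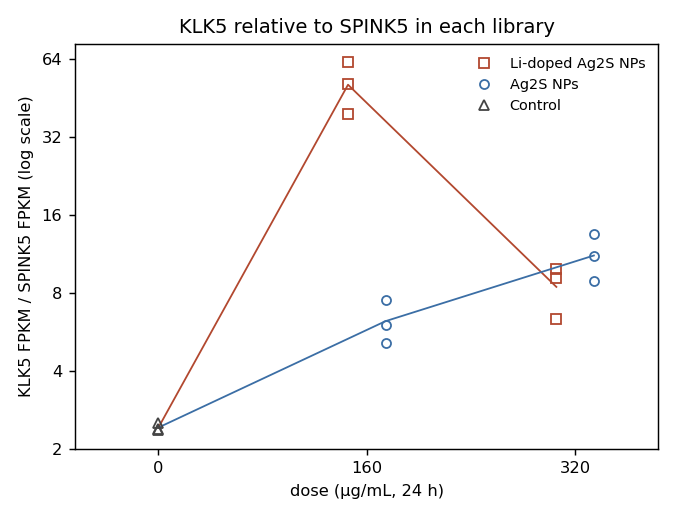
KLK5 FPKM divided by SPINK5 FPKM in each library (y axis, log scale) against dose in μg/mL (x axis), with symbols by group and lines through the group means. The libraries of Li-doped Ag2S NPs at 160 μg/mL lie at 39.4 to 62.3, apart from all others, and control lies at 2.36 to 2.51.

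KLK10, a secreted kallikrein of normal epithelia whose RNA is lost in several carcinomas, was the most abundant gene of the set in control and fell in every treated group. At 160 μg/mL it had 35.5, 29.3 and 29.1 FPKM with Li-doped Ag2S NPs and 84.1, 112 and 89.0 FPKM with Ag2S NPs, against 174, 162 and 149 FPKM in control. KLK10 had, at 320 μg/mL, 62.0, 58.4 and 59.9 FPKM with Li-doped Ag2S NPs and 61.3, 65.5 and 67.1 FPKM with Ag2S NPs. The treated libraries all lay below control. The log2 fold change was -2.37 ± 0.12 (SE) with Li-doped Ag2S NPs at 160 μg/mL (adjusted p = 3.34e-08) and -0.77 ± 0.12 with Ag2S NPs at 160 μg/mL (adjusted p = 7.83e-04). Both particles at 320 μg/mL gave values close together, -1.42 ± 0.07 with Li-doped Ag2S NPs (adjusted p = 3.48e-08) and -1.32 ± 0.07 with Ag2S NPs (adjusted p = 7.17e-08). Within the set, the share of the summed FPKM of the 8 genes that KLK10 held was 20.3% with Li-doped Ag2S NPs at 160 μg/mL and 57.8% in control, whereas the KLK5 share was 67.4% in those treated libraries and 17.1% in control.

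KLK13, another trypsin-like secreted kallikrein, also fell in every treated group. It had 2.02, 1.34 and 1.61 FPKM with Li-doped Ag2S NPs at 160 μg/mL and 5.36, 5.60 and 7.53 FPKM with Ag2S NPs at that dose, against 11.1, 12.02 and 10.6 FPKM in control. The dose of 320 μg/mL gave 1.91, 2.30 and 1.45 FPKM with Li-doped Ag2S NPs and 3.80, 4.63 and 5.07 FPKM with Ag2S NPs. The Li-doped particles thus gave the lower level at both doses, with no overlap between the particles. The log2 fold changes with Li-doped Ag2S NPs were -2.71 ± 0.18 (SE) at 160 μg/mL (adjusted p = 3.34e-07) and -2.53 ± 0.18 at 320 μg/mL (adjusted p = 6.51e-07), and those with Ag2S NPs were -0.87 ± 0.18 at 160 μg/mL (adjusted p = 0.00453) and -1.31 ± 0.18 at 320 μg/mL (adjusted p = 1.17e-04). Summing only protein-coding transcripts, an alternative chosen after seeing the data, left a log2 fold change of -0.70 with Ag2S NPs at 160 μg/mL and ended that call (adjusted p = 0.0801).

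KLK11, a trypsin-like kallikrein also made in skin, stood apart from its neighbor KLK10, since it fell in 1 treated group alone among the 4. It had 9.30, 9.23 and 8.86 FPKM with Li-doped Ag2S NPs at 160 μg/mL, against 25.6, 23.5 and 26.8 FPKM in control, a log2 fold change of -1.46 ± 0.11 (SE, adjusted p = 9.01e-07). In the other treated groups KLK11 had 19.8, 26.7 and 22.9 FPKM with Ag2S NPs at 160 μg/mL, 22.9, 23.5 and 27.0 FPKM with Li-doped Ag2S NPs at 320 μg/mL and 20.7, 23.2 and 22.9 FPKM with Ag2S NPs at 320 μg/mL. Ag2S NPs at 160 μg/mL and Li-doped Ag2S NPs at 320 μg/mL overlapped control, and Ag2S NPs at 320 μg/mL lay just below the lowest control library. The log2 difference from control was -0.14 with Ag2S NPs at 160 μg/mL (95% interval -0.38 to 0.11, adjusted p = 0.360), -0.05 with Li-doped Ag2S NPs at 320 μg/mL (-0.25 to 0.15, adjusted p = 0.654) and -0.18 with Ag2S NPs at 320 μg/mL (-0.38 to 0.02, adjusted p = 0.113).

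TMPRSS11E, the membrane-bound protease, separated the particles most at the higher dose. At 320 μg/mL it had 3.66, 3.28 and 3.29 FPKM with Li-doped Ag2S NPs and 14.5, 13.9 and 14.3 FPKM with Ag2S NPs, against 12.5, 12 and 13.04 FPKM in control. At 160 μg/mL it had 4.5, 6.87 and 4.72 FPKM with Li-doped Ag2S NPs and 10.3, 8.38 and 7.50 FPKM with Ag2S NPs. Both particles gave libraries below control at 160 μg/mL, whereas at 320 μg/mL the Li-doped particles lay below and the undoped particles above control. The log2 fold change with Li-doped Ag2S NPs was -1.23 ± 0.17 (SE) at 160 μg/mL (adjusted p = 8.89e-05) and -1.85 ± 0.10 at 320 μg/mL (adjusted p = 8.39e-08). With Ag2S NPs it was -0.53 ± 0.17 at 160 μg/mL (adjusted p = 0.0348) and 0.18 at 320 μg/mL, which did not pass the test (95% interval -0.04 to 0.41, adjusted p = 0.144). Scaling by median ratio ended the call at 160 μg/mL (-0.40, adjusted p = 0.0750) and made one at 320 μg/mL (0.35, adjusted p = 0.00969) for Ag2S NPs. The call with Ag2S NPs at 160 μg/mL was also lost without any 1 of the 3 control libraries or without replicate 5 or 6 of the Ag2S NPs, at log2 values between -0.65 and -0.42 over all libraries left out and an adjusted p of up to 0.107.

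KLK6 and KLK14, trypsin-like kallikreins of which KLK14 is an efficient cutter of desmosomal proteins, averaged under 1 FPKM and did not enter the main test. KLK6 had 0.66, 0.10 and 0.16 FPKM with Li-doped Ag2S NPs at 160 μg/mL and 0.38, 0.28 and 0.23 FPKM at 320 μg/mL, against 0.60, 0.87 and 0.75 FPKM in control. The Ag2S NPs gave 0.76, 0.80 and 0.63 FPKM at 160 μg/mL and 0.49, 0.72 and 1.43 FPKM at 320 μg/mL. With no filter on low values, KLK6 passed with Li-doped Ag2S NPs, by -1.29 ± 0.46 (SE, adjusted p = 0.0436) at 160 μg/mL and -1.09 ± 0.36 (adjusted p = 0.0377) at 320 μg/mL. KLK14 ran from 0.00 to 0.98 FPKM over the 15 libraries, both extremes being at 160 μg/mL, and passed no test.

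**Figure D3:**
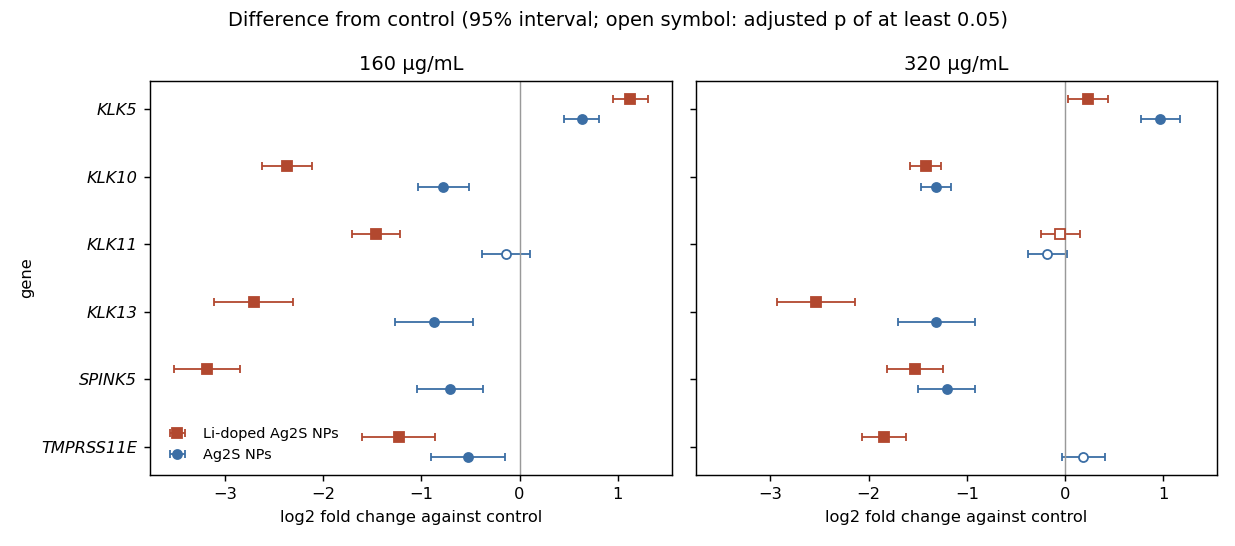
Log2 fold change against control (x axes, log2(FPKM + 0.1) scale, with 95% intervals) of the 6 genes tested at 160 μg/mL and at 320 μg/mL, with squares for Li-doped Ag2S NPs, circles for Ag2S NPs and open symbols where the adjusted p was 0.05 or more. KLK5 lies to the right of 0 in each case, and KLK10, KLK13 and SPINK5 lie to the left, with SPINK5 at -3.18 for Li-doped Ag2S NPs at 160 μg/mL.

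Counted over the 6 genes tested, 1 rose and 5 fell with Li-doped Ag2S NPs at 160 μg/mL, where 63.3% of all 11987 genes tested were called (22.6% rose and 40.6% fell). With Ag2S NPs at 160 μg/mL, 1 rose and 4 fell (35.2% of all genes called, 11.5% rising and 23.8% falling). At 320 μg/mL, 1 rose and 4 fell with Li-doped Ag2S NPs (61.6% of 11903 genes called, 17.0% rising and 44.6% falling), and 1 rose and 3 fell with Ag2S NPs (52.4%, 16.2% rising and 36.2% falling). The median log2 fold change of the 6 genes, beside that of all genes, was -1.91 and -0.19 with Li-doped and -0.62 and -0.14 with undoped Ag2S NPs at 160 μg/mL. The same medians were -1.48 and -0.26 with Li-doped and -0.69 and -0.19 with undoped Ag2S NPs at 320 μg/mL. The 4 comparisons share their control libraries. All 4 medians over all genes were thus below 0, and scaling by median ratio moved them to between -0.03 and -0.01. With that scaling, 3570 genes rose and 3719 fell with Li-doped Ag2S NPs at 160 μg/mL in place of 2715 and 4869, and the other comparisons with control became similarly even. The directions of the members that passed were kept under this scaling, which in these comparisons changed only the 2 calls of TMPRSS11E given above.

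Compared at the same dose, the Li-doped particles differed from the undoped ones in all 6 genes at 160 μg/mL, where 50.4% of all genes tested were called (21.4% higher and 29.0% lower). KLK5 was higher with Li-doped than with undoped Ag2S NPs, by a log2 difference of 0.50 ± 0.08 (SE, adjusted p = 4.84e-04). The other 5 genes were lower, by -2.48 ± 0.15 for SPINK5 (adjusted p = 3.98e-07), -1.84 ± 0.18 for KLK13 (adjusted p = 1.21e-05), -1.59 ± 0.12 for KLK10 (adjusted p = 1.41e-06), -1.32 ± 0.11 for KLK11 (adjusted p = 3.64e-06) and -0.71 ± 0.17 for TMPRSS11E (adjusted p = 0.00540).

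At 320 μg/mL 3 of the 6 genes differed between the particles, all lower with Li-doped Ag2S NPs (26.2% of all genes were called, 10.1% higher and 16.1% lower). TMPRSS11E differed by -2.03 ± 0.10 (SE, adjusted p = 6.84e-07), KLK13 by -1.22 ± 0.18 (adjusted p = 8.88e-04) and KLK5 by -0.74 ± 0.09 (adjusted p = 3.34e-04). The remaining 3 did not pass the test. Their differences were -0.10 for KLK10 (95% interval -0.26 to 0.05, adjusted p = 0.290), 0.13 for KLK11 (-0.07 to 0.33, adjusted p = 0.300) and -0.32 for SPINK5 (-0.61 to -0.04, adjusted p = 0.0879). SPINK5 passed when replicate 9 of the Ag2S NPs or replicate 14 of the Li-doped Ag2S NPs was left out (-0.44 in both cases, lowest adjusted p 0.0262).

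For each particle the doses were compared with all 15 libraries in a single fit. With Li-doped Ag2S NPs, 320 against 160 μg/mL, KLK10, KLK11 and SPINK5 rose and KLK5 and TMPRSS11E fell (42.8% of 11952 genes were called, 19.6% rising and 23.3% falling). SPINK5 averaged 6.78 ± 0.99 FPKM at 320 μg/mL and 2.11 ± 0.48 FPKM at 160 μg/mL (SD, n = 3 each), a log2 difference of 1.65 ± 0.16 (SE, adjusted p = 7.61e-07). KLK11 differed by 1.41 ± 0.11 (adjusted p = 6.08e-08), KLK10 by 0.94 ± 0.10 (adjusted p = 3.22e-06), KLK5 by -0.90 ± 0.10 (adjusted p = 2.68e-06) and TMPRSS11E by -0.61 ± 0.15 (adjusted p = 0.00392). KLK13 gave 0.17 (95% interval -0.25 to 0.59, adjusted p = 0.509).

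With undoped Ag2S NPs, 320 against 160 μg/mL, 2 genes rose and 2 fell, where 12.5% of all genes were called (4.84% rising and 7.68% falling). TMPRSS11E averaged 14.2 ± 0.28 FPKM at 320 μg/mL and 8.73 ± 1.43 FPKM at 160 μg/mL (SD, n = 3 each), a log2 difference of 0.71 ± 0.15 (SE, adjusted p = 0.00598). KLK10 fell by 0.54 ± 0.10 on the log2 scale (adjusted p = 0.00309). KLK5 (0.34 ± 0.10, adjusted p = 0.0316) and SPINK5 (-0.50 ± 0.16, adjusted p = 0.0487) passed narrowly. Both calls ended after scaling by median ratio (0.37, adjusted p = 0.0715, and -0.47, adjusted p = 0.0544), the KLK5 call also without replicate 4, 5, 8 or 9 (0.25 to 0.42 over all libraries left out, adjusted p of up to 0.115) and the SPINK5 call without any 1 of 11 libraries, namely those of control, those of Ag2S NPs and replicates 12 and 13 of the Li-doped Ag2S NPs (-0.58 to -0.39, adjusted p of up to 0.184). KLK13 gave -0.44 (95% interval -0.86 to -0.02, adjusted p = 0.165) and KLK11 gave -0.05 (-0.27 to 0.18, adjusted p = 0.824).

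The difference between those dose effects was tested as an interaction, the change from 160 to 320 μg/mL with Li-doped Ag2S NPs minus that with Ag2S NPs. It passed for 5 of the 6 genes, with 39.7% of all genes called. It was positive for SPINK5 (2.15 ± 0.22, SE, adjusted p = 2.34e-06), KLK10 (1.49 ± 0.15, adjusted p = 1.36e-06) and KLK11 (1.45 ± 0.15, adjusted p = 2.30e-06), and negative for TMPRSS11E (-1.32 ± 0.21, adjusted p = 1.65e-04) and KLK5 (-1.23 ± 0.14, adjusted p = 4.50e-06). The estimated dose effects had opposite signs with the 2 particles, and both passed the test, for KLK5, KLK10, SPINK5 and TMPRSS11E. The KLK5 and SPINK5 calls with undoped Ag2S NPs were the narrow ones that ended after scaling by median ratio. The estimates for KLK11 and KLK13 also differed in sign, but those of KLK11 with undoped Ag2S NPs and of KLK13 with both particles did not pass. How many of all genes had opposite signs was not computed. KLK13 gave 0.61 ± 0.28 (adjusted p = 0.0951), and passed without replicate 10 or replicate 15 of the Li-doped Ag2S NPs (up to 0.78, lowest adjusted p 0.0335).

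**Figure D4:**
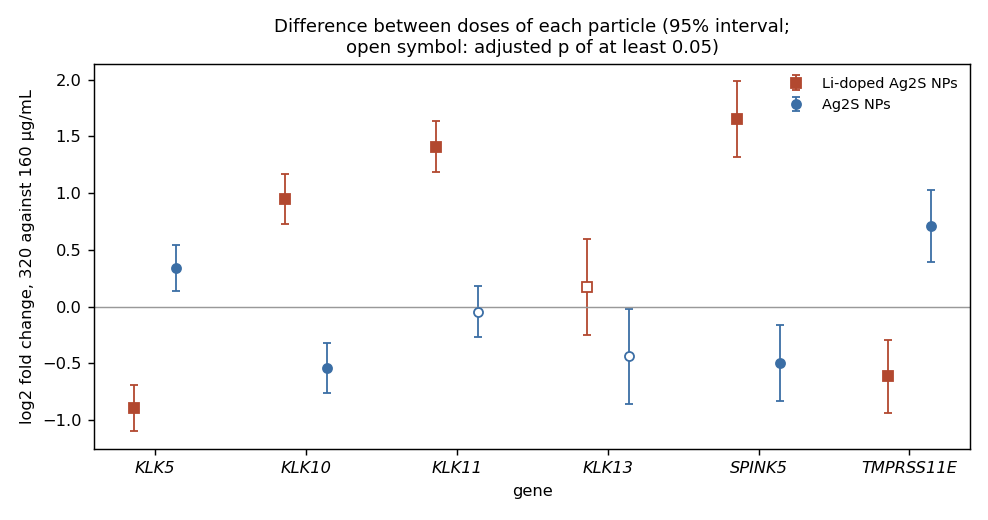
Log2 fold change of 320 against 160 μg/mL (y axis, with 95% intervals) for the 6 genes tested (x axis), with squares for Li-doped Ag2S NPs, circles for Ag2S NPs and open symbols where the adjusted p was 0.05 or more. The particles fall on opposite sides of 0 for all 6 genes, KLK11 with undoped Ag2S NPs and KLK13 with both particles having open symbols, and SPINK5 lies at 1.65 for Li-doped and -0.50 for undoped Ag2S NPs.

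Transcript estimates by the authors divide the genes further, and are given without a test. The KLK5 level came almost wholly from 2 protein-coding transcripts of 879 coding bases each. ENST00000593428 held 50.1% of the KLK5 FPKM with Li-doped Ag2S NPs at 160 μg/mL and 42.1% in control, and ENST00000391809 held 48.0% with these particles and 57.0% in control. ENST00000358789 held 76.4% of KLK10 in the same treated group and 88.2% in control. In SPINK5 the protein-coding transcript ENST00000256084, with 3192 coding bases, held 47.9% with Li-doped Ag2S NPs at 160 μg/mL and 41.2% in control, and a processed transcript that starts inside the gene, ENST00000476608, held 36.7% in those libraries and 40.1% in control. By library, the shares with Li-doped Ag2S NPs at 160 μg/mL overlapped those in control for the KLK5 and SPINK5 transcripts named. For the KLK10 transcript they did not, at 70.9 to 83.6% against 87.7 to 88.5% in control. Protein-coding transcripts of SPINK5 together averaged 1.05 FPKM in that treated group and 11.3 FPKM in control. In KLK13 a transcript annotated for nonsense-mediated decay, ENST00000156476, held 36.7% of the level in control.

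Of the other tissue kallikreins, 4 of 7 genes were listed. KLK1, a kininogen-cutting kallikrein at the far end of the cluster, rose in all 4 treated groups, at 160 μg/mL by 1.29 ± 0.21 with Li-doped Ag2S NPs (log2, SE, adjusted p = 2.90e-04) and by 0.75 ± 0.21 with Ag2S NPs (adjusted p = 0.0185). The rises at 320 μg/mL were 1.40 ± 0.22 with Li-doped Ag2S NPs (adjusted p = 2.26e-04) and 0.95 ± 0.22 with Ag2S NPs (adjusted p = 0.00349). It averaged 12.3 ± 1.62 FPKM with Li-doped Ag2S NPs at 160 μg/mL and 5.12 ± 1.70 FPKM in control (SD, n = 3 each). KLK4, named after its values were seen, had 0.32, 0.23 and 2.71 FPKM with Li-doped and 2.75, 0.98 and 4.39 FPKM with undoped Ag2S NPs at 320 μg/mL, against 0.06, 0.00 and 0.00 FPKM in control. It reached a mean of 1 FPKM only through the treated libraries, so its values are a description, and 1 library, replicate 15, was far above the other two with Li-doped Ag2S NPs. None of the other Kazal-type inhibitors reached a mean of 1 FPKM (2 of 9 listed).

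**Figure D5:**
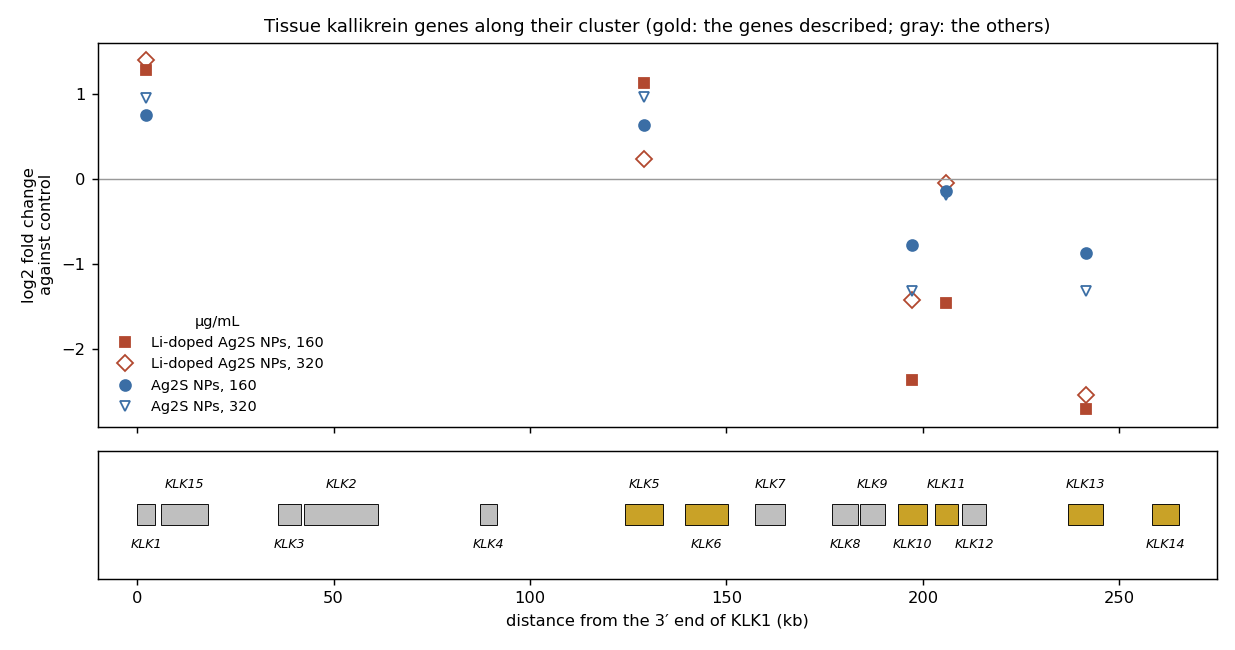
Log2 fold change against control (y axis of the upper panel) of KLK1 and the 4 tested kallikreins of the set against their place in the cluster, as distance in kb from the 3′ end of KLK1 (x axis), with filled symbols for 160 and open symbols for 320 μg/mL, and the annotated genes drawn to scale in the lower panel. KLK1 and KLK5 lie above 0 in the 4 comparisons, KLK10 and KLK13 lie below 0, and KLK11 between them lies at -1.46 in 1 comparison and near 0 in the other 3.

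Other membrane-bound and trypsin-like serine proteases did not move as 1 group. With Li-doped Ag2S NPs at 160 μg/mL, 1 of 7 tested genes rose and 4 fell, or 3 fell after scaling by median ratio (63.3% of all genes called, median log2 fold change -0.47, beside -0.19 over all genes), and with Ag2S NPs at that dose 2 fell (35.2% of all genes called, median 0.13, beside -0.14) but 1 rose and 1 fell after scaling by median ratio. PRSS22, an epithelial tryptase, fell in all 4 groups, averaging 9.42 ± 0.49 FPKM with Li-doped and 24.0 ± 5.88 FPKM with undoped Ag2S NPs at 160 μg/mL, against 67.7 ± 3.81 FPKM in control (SD, n = 3 each). TMPRSS4, a membrane-bound relative of TMPRSS11E, fell in the same 4 comparisons. At 160 μg/mL it fell by 1.61 ± 0.08 with Li-doped Ag2S NPs (log2, SE, adjusted p = 2.30e-08) and by 0.37 ± 0.08 with undoped Ag2S NPs (adjusted p = 0.00406). PRSS22 and TMPRSS4 were the 2 genes that fell with undoped Ag2S NPs at 160 μg/mL, and only 1 fall was left there after scaling by median ratio. ST14, the gene of matriptase, which can activate the KLK5 precursor, fell with Li-doped Ag2S NPs at 160 μg/mL (-0.38 ± 0.08, adjusted p = 0.00193) and rose with Ag2S NPs at 320 μg/mL (0.24 ± 0.06, adjusted p = 0.00539). PRSS8, the gene of prostasin, passed in 1 of the 4 comparisons, Ag2S NPs at 320 μg/mL (-0.23 ± 0.09, adjusted p = 0.0474). There 2 of the 7 genes rose and 3 fell, or 2 and 2 after scaling by median ratio (52.4% of all genes called, 16.2% rising and 36.2% falling). With Li-doped Ag2S NPs at 320 μg/mL 1 rose and 2 fell, or 2 and 2 after that scaling (61.6% of all genes called, 17.0% rising and 44.6% falling). The gene that rose with Li-doped Ag2S NPs at 160 μg/mL was PRSS3, named after its values were seen. It averaged 2.28 FPKM there and 2.52 FPKM with these particles at 320 μg/mL, against 0.39 FPKM in control. PRSS3 reached a mean of 1 FPKM only through the treated libraries, so its part in these counts is a description.

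Among 12 other protease inhibitors tested, 5 rose and 7 fell with Li-doped Ag2S NPs at 160 μg/mL (63.3% of all genes called, median -0.48, beside -0.19 over all genes), and 1 rose and 5 fell with Ag2S NPs at that dose (35.2% called, median -0.15, beside -0.14). The counts at 320 μg/mL were 4 risen and 6 fallen with Li-doped Ag2S NPs (61.6% called, median -0.18, beside -0.26) and 2 risen and 8 fallen with Ag2S NPs (52.4% called, median -0.53, beside -0.19), but 5 rose and 4 fell with Li-doped Ag2S NPs after scaling by median ratio. SERPINB13, an inhibitor of cysteine cathepsins, averaged 65.6 ± 4.96 FPKM with Li-doped Ag2S NPs at 160 μg/mL, against 277 ± 7.20 FPKM in control (SD, n = 3 each). SERPINB7, whose loss causes a palmoplantar keratosis, went the other way in each treated group, with 75.2 ± 5.38 FPKM with Li-doped Ag2S NPs at 160 μg/mL, against 39.7 ± 2.09 FPKM in control. WFDC2, a secreted inhibitor of the whey acidic protein family, averaged 46.1 ± 4.27 FPKM with Li-doped Ag2S NPs at 160 μg/mL, against 114 ± 2.28 FPKM in control, and SERPINB6, an intracellular serpin, averaged 40.3 ± 0.48 FPKM, against 83.7 ± 1.15 FPKM in control. Both fell there (log2 fold changes of -1.31 for WFDC2 and -1.05 for SERPINB6, adjusted p = 1.80e-07 and 7.46e-07). SERPINB3 and SERPINB4 also fell in all 4 groups, but they are near-identical copies and the authors' correction for multiply mapped reads could divide reads between them, so their separate values are uncertain.

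F2RL1, the gene of protease-activated receptor 2, which KLK5 and KLK14 can cut and activate, was 1 of 2 genes tested among substrates and receptors of skin kallikreins, and both rose in all 4 treated groups. Both encode receptors, and no substrate was tested. The substrate genes CDSN and DSG1 had group means of 0.29 to 0.39 and 0.01 to 0.20 FPKM, too low to enter the test. Of all genes tested, 22.6% rose with Li-doped and 11.5% with undoped Ag2S NPs at 160 μg/mL. At 320 μg/mL these shares were 17.0% and 16.2%. F2RL1 had 109 to 114 FPKM with Li-doped and 50.4 to 55.0 FPKM with undoped Ag2S NPs at 160 μg/mL, against 29.1 to 31.95 FPKM in control. The log2 fold change of F2RL1 was 1.84 ± 0.07 with Li-doped (SE, adjusted p = 4.05e-09) and 0.76 ± 0.07 with undoped Ag2S NPs (adjusted p = 2.56e-05). F2R, the thrombin receptor, rose by 1.10 ± 0.07 with Li-doped Ag2S NPs at that dose (adjusted p = 2.66e-07). Of the 3 cathepsins of desquamation, CTSV rose in all 4 groups and reached 126 ± 4.08 FPKM with Li-doped Ag2S NPs at 320 μg/mL, against 37.2 ± 2.44 FPKM in control (SD, n = 3 each). CTSC rose with Li-doped Ag2S NPs at 160 μg/mL (0.46 ± 0.07, adjusted p = 1.88e-04) and with Ag2S NPs at 320 μg/mL (0.37 ± 0.06, adjusted p = 4.87e-04), the same 2 groups in which CTSD fell (-0.41 ± 0.10, adjusted p = 0.00405, and -0.29 ± 0.09, adjusted p = 0.0185). Neither passed in the other 2 treated groups. After scaling by median ratio the CTSD calls were lost, and 2 of the 3 cathepsins rose with Li-doped Ag2S NPs at 320 μg/mL in place of 1. Over all genes, that scaling made 3255 of 11900 rise there in place of 2018 of 11903.

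The genes whose pattern over the 5 group means was nearest to that of each gene were found among 11952 genes, by the root mean square difference of log2 group means after each gene's own mean was subtracted. INHBA (0.06) and ITGB1 (0.10) were nearest to KLK5, CHD3 and CSF1 (both 0.08) to KLK10, DHRS4 and SH2D3C (both 0.06) to KLK11, and KIF18A (0.12) and FOXC1 (0.13) to KLK13. ERMAP (0.11) was nearest to SPINK5, and AL031282.1 (0.25) and ALDH1A3 (0.26) to TMPRSS11E. Within the set, KLK10 and SPINK5 lay closest to each other (0.34), and KLK5 and SPINK5 lay farthest apart (1.40). These distances rest on 5 means of 3 libraries and are a description.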

How the data were processed

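Per the labels and the methods, the authors sequenced paired reads of 150 bases, aligned them with TopHat, estimated expression with Cufflinks 2.1.1 (corrected for multiply mapped reads and fragment bias) and compared groups with Cuffdiff. They deposited FPKM per gene, transcript and library, rounded to 2 decimals. No genome build or annotation release is given in the sources used here. All 18179 gene identifiers occur in GENCODE v29 on GRCh38, the source of the coordinates. The authors' fold changes and p-values were not used. Depth is unknown, so the precision is that of 3 libraries per group.

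The genes tested had to reach an average FPKM of 1 in the libraries fitted, and were analysed on log2(FPKM + 0.1) with limma 3.58.1 in R 4.3.3 (eBayes with a trend, two-sided, Benjamini-Hochberg over all genes, adjusted p of 0.05), in 1 fit of 9 libraries per dose, or of all 15 for dose comparisons. The fit was tested on simulated data. The 51642 control values that both dose tables hold did not differ. Alternatives were other pseudocounts, filters, scaling, samples and weights, and leaving out each library. The members and lists were chosen with earlier results of these data known. Beside the members, genes were named from each list with a group mean of at least 5 FPKM, up to 6 per list by smallest p, and the 2 nearest in pattern to each member (1 of those near SPINK5 is not reported here).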

Additional observations from a re-analysis of the deposited data

Results flagged for a closer look

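In 5 of the 6 genes tested the response to dose was not the same with both particles by the interaction test of limma (log2 change from 160 to 320 μg/mL with Li-doped Ag2S NPs minus that with Ag2S NPs, Benjamini-Hochberg adjustment over all genes). The same test called 39.7% of all 11952 genes tested. The values of the 5 genes were 2.15 for SPINK5, 1.49 for KLK10, 1.45 for KLK11, -1.32 for TMPRSS11E and -1.23 for KLK5. Each was past the threshold in all alternatives tried and without any 1 of the 15 libraries. Groups of 3 libraries were not screened for single outlying values.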

How the results depend on the processing

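Under 10 alternative settings (9 for the dose comparisons and the interaction, which have all 15 libraries in the fit already) and with each library left out in turn, no log2 fold change that passed the test turned its direction. The count of genes called for Ag2S NPs at 320 against 160 μg/mL was 2 in place of 4 after scaling by median ratio and in a fit of those groups alone, and ran from 2 to 4 with 1 library left out (replicates 4 and 5 at 160 and replicates 8 and 9 at 320 μg/mL each gave 2). Over the 54 results of single genes, calls were lost or gained mainly for KLK5 and SPINK5 in this comparison, KLK5 with Li-doped Ag2S NPs at 320 μg/mL and TMPRSS11E with Ag2S NPs at 160 μg/mL. No paired analysis was possible because the 15 libraries carry separate replicate numbers. FPKM without depth gave no counting error.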
